A study of Homo sapiens with 4 samples.

Results

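The SLC25A genes encode the mitochondrial carriers, a family of small membrane proteins that move metabolites, nucleotides, cofactors and ions across the inner mitochondrial membrane. Members were taken as every gene symbol of the deposited expression table that starts with SLC25A, with transcript rows summed per symbol. This gave 46 of 16504 gene symbols, from 93 transcripts: 43 carrier genes and 3 antisense RNA genes (SLC25A5-AS1, SLC25A21-AS1 and SLC25A25-AS1). The carriers SLC25A2, SLC25A27, SLC25A31, SLC25A47 and SLC25A48 were not analysed here. RNA-seq was performed on 4 libraries labelled NB4, a cell line from human acute promyelocytic leukemia. The study used lentiviral short hairpin RNAs (shRNAs) and puromycin selection to lower CEBPG, a leucine-zipper transcription factor, and asked which genes depend on it. In the control group (NC in the labels) CEBPG was present, and there were 2 libraries. In the knockdown group (CEBPG3 in the labels) there were also 2 libraries. The 3 was read as the third CEBPG hairpin of the study, which is an assumption, so that the knockdown group may stand for 1 hairpin. The labels do not say whether the 2 libraries of a group came from separate cultures, so p-values measure only the spread between these libraries, which may be technical.

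Most mitochondrial carriers share a fold of 3 tandem repeats and exchange one solute for another. They feed oxidative phosphorylation with ADP and phosphate, link the citric acid cycle to the cytosol, and supply the matrix with amino acids and cofactors. In red cell precursors SLC25A37 (mitoferrin 1) brings iron into mitochondria and SLC25A38 brings in glycine, both for heme synthesis. SLC25A39, a carrier of glutathione, is also abundant in that lineage.

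Values were in FPKM (fragments scaled to transcript length and to the mapped reads of the library), whose sums over genes lay between 345340 and 366139 per library. Read depth was unknown. CEBPG was at 17.1 and 18.1 FPKM in NC and 6.91 and 7.96 FPKM in CEBPG3, so that 42.2% of the control level remained (log2 fold change -1.14, limma, adjusted p = 0.000836). Blood lineage markers went against the cell line label. Of 15 erythroid markers, 13 were at 10 FPKM or more in every library and AHSP was under 1 FPKM in every library. Of 12 promyelocytic and myeloid markers, 7 were under 1 FPKM in every library, among them PRTN3, AZU1, ANPEP, CSF3R and CEBPA. SPI1 and LYZ, which is 2 of the 12, were at 10 FPKM or more in every library (15.2 to 17.2 FPKM and 15.0005 to 20.1 FPKM), and CD33 and FUT4 lay between 4.31 and 9.77 FPKM. The summed level of the erythroid list was 8515 and 8046 FPKM in NC and 9520 and 8957 FPKM in CEBPG3. That of the myeloid list was 50.8 and 50.9 FPKM against 52.6 and 53.7 FPKM. All 4 libraries are called by their label only. In bulk RNA, fewer cells of a type and less RNA per cell cannot be told apart.

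SLC25A10, the dicarboxylate carrier that exchanges malate or succinate for phosphate, had the largest log2 fold change in size among the 38 tested members and was 1.66-fold higher in the knockdown. SLC25A46, an outer membrane relative of the carriers linked to mitochondrial shape, fell the most among called members, to 67.7% of control. The other called members differed by smaller amounts. Genes that averaged 1 FPKM or more over the 4 libraries were tested on the log2(FPKM + 1) scale, which 38 of the 46 members reached, and a gene was called at a limma adjusted p under 0.05 over all 10968 genes tested. Of the 38 members, 9 were called (23.7%), where the share over all tested genes was 20.9%. Higher in the knockdown were SLC25A1, SLC25A10, SLC25A22 and SLC25A32, which is 4 members (10.5%) beside 10.9% of all genes. Lower were SLC25A3, SLC25A4, SLC25A23, SLC25A38 and SLC25A46, which is 5 members (13.2%) beside 9.99% of all genes. These shares were close to those of all genes. The groups did not overlap in 28 of the 38 members (73.7%), 14 in each direction, beside 64.8% of all genes. The median log2 fold change of the 38 members was 0.0031, with 19 above and 19 below 0, and that of all tested genes was 0.015. Of the 9 called members 1, SLC25A10, changed by more than 0.5 on the log2 scale, as did 27.1% of all called genes.

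**Figure D1:**
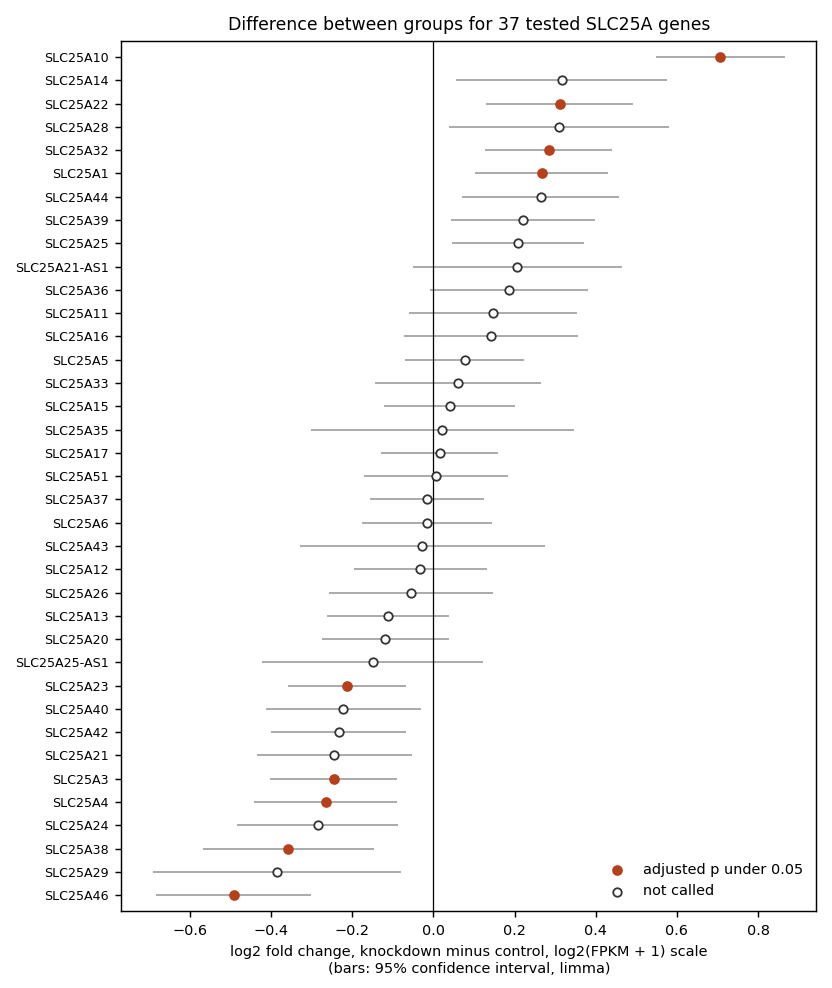
Log2 fold change (knockdown minus control, log2(FPKM + 1) scale) of 37 of the 38 tested SLC25A genes on the horizontal axis, with 95% confidence intervals from limma as bars; filled points are the 9 genes with an adjusted p under 0.05. SLC25A10 at 0.71 stands apart at the upper end, and SLC25A46 at -0.49 is at the lower end.

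Leaving out single libraries separated the 9 calls. Each such fit left 1 library in a group, so the spread within groups was read from the other group alone. A kept or lost call in these fits is given as a description only. SLC25A10 and SLC25A46 were called without any one of the 4 libraries. SLC25A1, SLC25A22 and SLC25A32 were called without control 1 and lost without control 2, knockdown 1 or knockdown 2. SLC25A3, SLC25A23 and SLC25A38 were called without control 2 and lost without control 1, knockdown 1 or knockdown 2. SLC25A4 was lost without any one library. The number of called members was 6 without control 1, 7 without control 2, 2 without knockdown 1 and 2 without knockdown 2. Over all tested genes the same fits called 1925, 1612, 825 and 838. All 9 kept their direction in these fits. With no filter on low values SLC25A10 alone stayed called, and with moderation without a mean trend 3 of the 9 did. Of all genes tested, these fits called 882 and 1889, beside 2288 at the main settings.

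Promoter sequences are shown for SLC25A46, the called member that fell the most, and for 1 further called member of each direction, SLC25A1 and SLC25A38, since the knocked-down protein is a transcription factor. Each runs 5′ to 3′ over the 250 bases before the RefSeq start on GRCh38. Capitals mark the letters CCGGAAG (an ETS-type motif) or CCAAT on either strand. The letters of a C/EBP and ATF composite site (TGATGNAA) and the palindromic C/EBP letters TTGNNCAA were also sought. Neither was found in the stretches shown.
SLC25A1, minus strand, chr22:19178737-19178986: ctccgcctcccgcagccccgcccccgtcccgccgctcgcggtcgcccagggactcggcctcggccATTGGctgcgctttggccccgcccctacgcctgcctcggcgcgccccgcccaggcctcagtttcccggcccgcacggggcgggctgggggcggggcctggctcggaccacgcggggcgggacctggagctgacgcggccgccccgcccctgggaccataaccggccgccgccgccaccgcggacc
SLC25A46, plus strand, chr5:110738757-110739006: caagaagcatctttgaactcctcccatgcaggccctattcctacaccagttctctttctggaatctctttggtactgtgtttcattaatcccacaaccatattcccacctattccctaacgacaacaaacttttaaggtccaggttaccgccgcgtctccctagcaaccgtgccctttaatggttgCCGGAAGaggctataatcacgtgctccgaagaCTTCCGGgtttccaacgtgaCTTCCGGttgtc
SLC25A38, plus strand, chr3:39383120-39383369: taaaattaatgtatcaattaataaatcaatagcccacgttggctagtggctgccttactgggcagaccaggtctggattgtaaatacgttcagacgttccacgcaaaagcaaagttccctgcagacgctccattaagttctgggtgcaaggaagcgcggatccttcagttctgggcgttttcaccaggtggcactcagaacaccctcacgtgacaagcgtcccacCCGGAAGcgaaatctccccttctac

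In these stretches SLC25A46 held CCGGAAG at 3 places, beginning 64, 32 and 12 bases before the start, and SLC25A38 held it at 25 bases. SLC25A1 held CCAAT at 185 bases. The SLC25A46 stretch ends at the base before the start of its GENCODE canonical transcript (110739007), but 2 other GENCODE transcripts begin upstream, so that it lies in an intron of those and inside the gene's outer limits. Of the SLC25A1 stretch, 3 bases lie in an exon of another GENCODE transcript that starts at 19178739. Over the whole RefSeq windows of 300 bases (250 before and 50 after the start), 39 of the 46 members had 51 windows, and all genes had 35116. The letters of a C/EBP and ATF composite site (TGATGNAA, either strand) were found in 1 of the 51 (1.96%), that of SLC25A11, beside 3.62% of all windows. The palindromic C/EBP letters TTGNNCAA were found in 3 of the 51 (5.88%), those of SLC25A22, SLC25A23 and SLC25A25, beside 5.55% of all. CCAAT was in 22 of the 51 (43.1%) beside 34.6%, and CCGGAAG was in 12 of the 51 (23.5%) beside 10.3%. Both were found in called members of either direction. CCAAT was in windows of SLC25A1, SLC25A10 and SLC25A22, called higher, and of SLC25A3, SLC25A4 and SLC25A23, called lower. CCGGAAG was in windows of SLC25A22, called higher, and of SLC25A4, SLC25A38 and SLC25A46, called lower. The GC-rich SP1 letters GGGCGG were in 34 of the 51 (66.7%) beside 45.0%. The NRF1 motif was in 4 of the 51 (7.84%) beside 5.78%, and the GATA letters AGATAA in 3 (5.88%) beside 10.3%. Of all windows, 111 held both the TGATGNAA and the TTGNNCAA letters. These matches describe letters only, and several windows belong to 1 gene.

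The family's summed level was 102% of control. All 43 carriers together were at 1465 and 1364 FPKM in NC and 1470 and 1422 FPKM in CEBPG3, which is 0.395% to 0.401% of all FPKM. A few members held most of it: the 6 most abundant carriers (SLC25A5, SLC25A3, SLC25A1, SLC25A6, SLC25A39 and SLC25A23) made up 74.8% to 76.1% of the family's FPKM in each library. Among members, 5 had a mean of 100 FPKM or more, 12 lay between 10 and 100 FPKM and 21 between 1 and 10 FPKM.

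**Figure D2:**
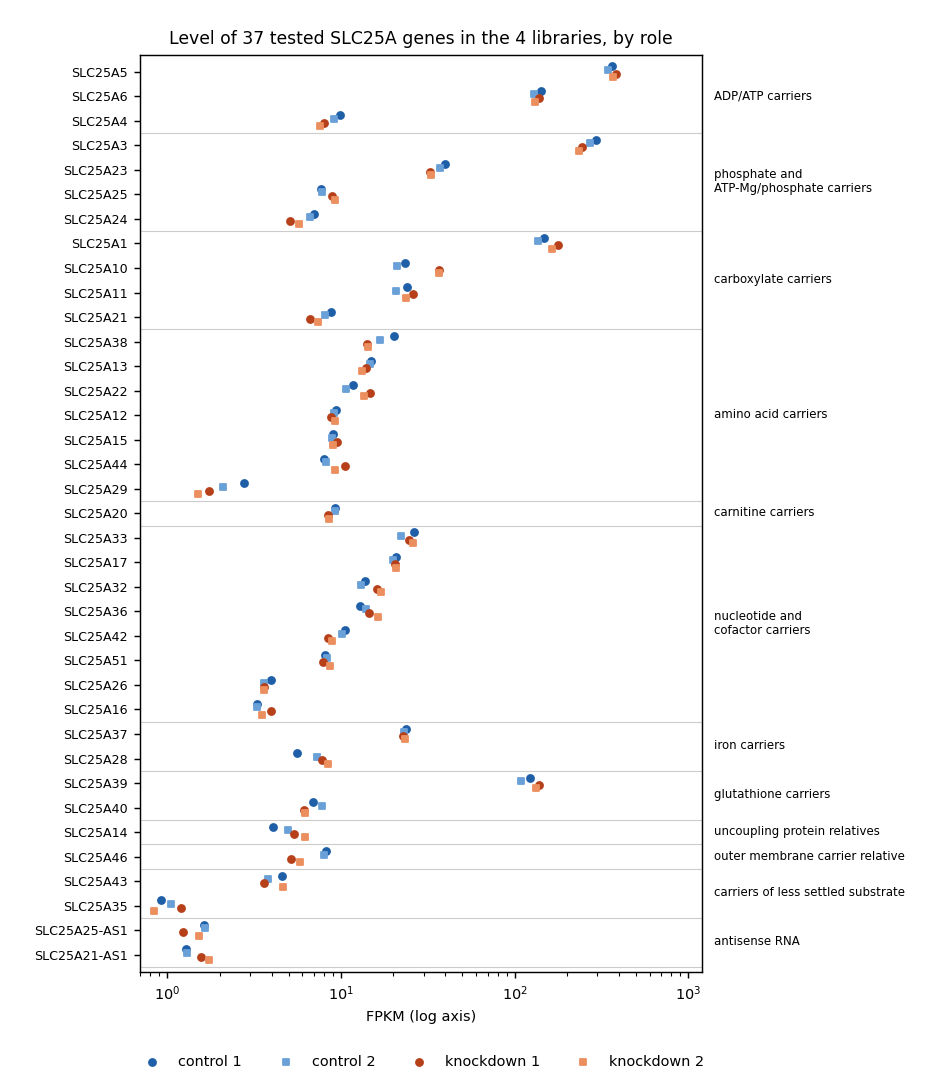
FPKM (log axis) of 37 of the 38 tested SLC25A genes in the 4 libraries, in rows grouped by what the carriers transport; blue symbols are control and orange symbols knockdown libraries. Levels ran from about 1 FPKM for SLC25A35 to 384 FPKM for SLC25A5 in knockdown 1, and most knockdown points lie close to the control points of the same gene.

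The ADP/ATP carriers exchange matrix ATP for cytosolic ADP. SLC25A5 (chromosome X, positions 119468422 to 119471396 on GRCh38, plus strand) was the most abundant member, at 366 and 347 FPKM in NC and 384 and 368 FPKM in CEBPG3. Its log2 fold change of 0.077 had a 95% confidence interval of -0.069 to 0.22 and was not distinguished from 0 (limma, adjusted p = 0.402). It was 0.040 without control 2 and 0.11 without control 1, and was not called in either case. SLC25A6 was at 142 and 129.9 FPKM against 139 and 130.5 FPKM, with overlapping groups. SLC25A4 (chromosome 4, 185143266 to 185150382, plus strand), the form typical of heart and muscle, was the scarcest of the 3. It was at 9.89 and 9.11 FPKM in NC and 7.94 and 7.54 FPKM in CEBPG3, where both values lay below both control values. Its log2 fold change was -0.26 (SE 0.074, limma, adjusted p = 0.0472), and -0.32 to -0.21 with 1 library left out (limma, adjusted p of 0.0621 to 0.186). Together the 3 carriers summed to 518 and 486 FPKM in NC and 531 and 506 FPKM in CEBPG3. Their GENCODE transcripts aligned at 77.5% to 78.9% identical bases with no shared exact run longer than 29 bases. How reads were divided between them was not given, so these levels are uncertain.

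SLC25A3 and the ATP-Mg/phosphate carriers bring phosphate and adenine nucleotides into the matrix. Of the 4 that were tested, SLC25A3 and SLC25A23 were called lower, as were 9.99% of all tested genes. SLC25A3 (chromosome 12, 98593591 to 98606379, plus strand), the phosphate carrier that serves ATP synthase and also carries copper, was at 296 and 272 FPKM in NC and 244 and 234 FPKM in CEBPG3. Group means were 284 ± 17.2 FPKM (SD, n = 2) for NC and 239 ± 6.71 FPKM (SD, n = 2) for CEBPG3, which is 84.2% of control. Its log2 fold change was -0.25 (SE 0.066, limma, adjusted p = 0.0414), and it was -0.18 without control 1 (limma, adjusted p = 0.0969). SLC25A3 gave the largest absolute difference of a called member.

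SLC25A23 (chromosome 19, 6436079 to 6465203, minus strand), a calcium-regulated ATP-Mg/phosphate carrier, was at 39.5 and 37.01 FPKM in NC and 32.8 and 32.9 FPKM in CEBPG3. The groups were apart, with a log2 fold change of -0.21 (SE 0.061). Its limma adjusted p of 0.0499 was just under the threshold, and it was 0.0510 with a pseudocount of 0.1. SLC25A24, of the same kind, was at 6.96 and 6.66 FPKM against 5.07 and 5.76 FPKM (log2 fold change -0.28, limma, adjusted p = 0.0536). SLC25A25 went the other way, at 7.65 and 7.77 FPKM against 8.87 and 9.28 FPKM (0.21, limma, adjusted p = 0.0721). Neither of these was called, but SLC25A24 was with a filter of 5 FPKM or median-ratio scaling (limma, adjusted p = 0.0406 and 0.0402). In sum the phosphate and ATP-Mg/phosphate carriers, including SLC25A41, were at 351 and 323 FPKM in NC and 291 and 283 FPKM in CEBPG3, and SLC25A3 made up most of that.

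The carboxylate carriers connect the citric acid cycle with the cytosol. Of the 4, SLC25A10 and SLC25A1 were called higher, as were 10.9% of all tested genes. The sum over all 4 was 205 and 185 FPKM in NC and 246 and 233 FPKM in CEBPG3. SLC25A10 (chromosome 17, 81712236 to 81721016, plus strand) was at 23.3 and 21.1 FPKM in NC and 36.8 and 36.9 FPKM in CEBPG3. Group means were 22.2 ± 1.52 FPKM (SD, n = 2) for NC and 36.8 ± 0.0272 FPKM (SD, n = 2) for CEBPG3, and both knockdown libraries were far above both control libraries. The log2 fold change was 0.71 (SE 0.067), with a 95% confidence interval of 0.55 to 0.87 (limma, adjusted p = 0.00169). It ranked 129th among tested genes by log2 fold change from the highest. Over the 7 other settings at gene level the value lay between 0.68 and 0.73 with an adjusted p of at most 0.0263 (limma). A second protein-coding gene annotated on the same strand overlaps exons of SLC25A10, and reads from the shared bases cannot be told apart.

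SLC25A1 (chromosome 22, 19175581 to 19178739, minus strand), the citrate carrier that supplies cytosolic citrate for fatty acid and sterol synthesis, was at 149 and 136 FPKM in NC and 177 and 165 FPKM in CEBPG3. Knockdown values lay above both controls, with a mean of 120% of control. The log2 fold change was 0.27 (SE 0.069, limma, adjusted p = 0.0376), and 0.20 without control 2 (limma, adjusted p = 0.0984). SLC25A11, the oxoglutarate carrier of the malate-aspartate shuttle, was at 23.9 and 20.6 FPKM against 25.9 and 23.6 FPKM and its groups overlapped. SLC25A21, the carrier of oxoadipate and other oxodicarboxylates, was at 8.76 and 8.12 FPKM against 6.62 and 7.33 FPKM (log2 fold change -0.24, limma, adjusted p = 0.074), and was called with median-ratio scaling (limma, adjusted p = 0.0496). Exons of SLC25A11 and SLC25A21 overlap genes on the other strand.

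**Figure D3:**
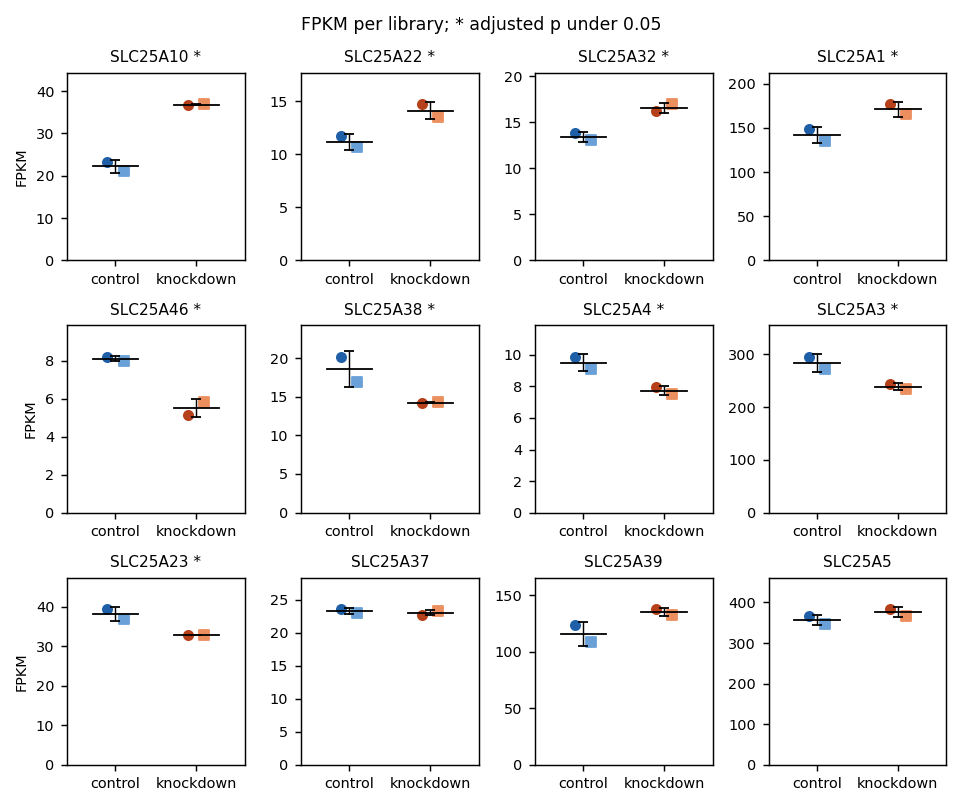
FPKM in each library for the 9 called members (marked with an asterisk) and for SLC25A37, SLC25A39 and SLC25A5, with axes from 0; horizontal lines are group means and error bars are SD (n = 2). SLC25A10 shows the widest gap relative to its level, from 22.2 to 36.8 FPKM, while the SLC25A37 points of both groups lie at 22.8 to 23.6 FPKM.

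Of 7 amino acid carriers tested, SLC25A22 was called higher and SLC25A38 lower, beside 10.9% and 9.99% of all tested genes. SLC25A22 (chromosome 11, 790475 to 798281, minus strand), which imports glutamate, was at 11.7 and 10.7 FPKM in NC and 14.7 and 13.5 FPKM in CEBPG3. The groups were apart, with a log2 fold change of 0.31 (SE 0.077, limma, adjusted p = 0.0321), and 0.25 without control 2 (limma, adjusted p = 0.103). PANO1, which overlaps its exons on the other strand, was at 0.418 to 0.807 FPKM. SLC25A12 and SLC25A13, the aspartate/glutamate carriers of the malate-aspartate shuttle, were at 8.73 to 9.34 FPKM and 13.2 to 14.8 FPKM over the 4 libraries and were not called. SLC25A15, the ornithine carrier of the urea cycle, was at 8.91 to 9.46 FPKM. SLC25A29, a carrier of basic amino acids, was at 2.78 and 2.10 FPKM against 1.75 and 1.499 FPKM (log2 fold change -0.38, limma, adjusted p = 0.0764). SLC25A44, a carrier of branched-chain amino acids, was at 7.97 and 8.24 FPKM against 10.6 and 9.30 FPKM (0.26, limma, adjusted p = 0.0607). These 2 did not overlap between groups and missed the threshold. The log2 fold change of SLC25A29 was -0.24 without control 1 (limma, adjusted p = 0.275) and -0.53 without control 2, where it was called (limma, adjusted p = 0.0493). SLC25A44 was called with the filter raised to a mean of 5 FPKM (limma, adjusted p = 0.0418).

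The carriers noted for erythroid cells did not move together. SLC25A38 (chromosome 3, 39383370 to 39397351, plus strand), the importer of glycine for the first step of heme synthesis, was at 20.2 and 16.9 FPKM in NC and 14.1 and 14.3 FPKM in CEBPG3. Both knockdown values were below both control values, and the control libraries themselves lay apart. Group means were 18.5 ± 2.33 FPKM (SD, n = 2) for NC and 14.2 ± 0.0742 FPKM (SD, n = 2) for CEBPG3, with a log2 fold change of -0.36 (SE 0.089, limma, adjusted p = 0.0337). Without control 1 the log2 fold change was -0.23 (limma, adjusted p = 0.0766).

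SLC25A37 (chromosome 8, 23528956 to 23575463, plus strand) was at 23.6 and 23.0 FPKM in NC and 22.8 and 23.3 FPKM in CEBPG3. The groups overlapped, and the log2 fold change of -0.015 had a 95% confidence interval of -0.16 to 0.13 (limma, adjusted p = 0.88). SLC25A39 (chromosome 17, 44319625 to 44324870, minus strand) was at 123 and 109 FPKM in NC and 138 and 132 FPKM in CEBPG3. Its groups were apart, yet the log2 fold change of 0.22, with a 95% confidence interval of 0.044 to 0.40, was not called (limma, adjusted p = 0.0786). It was 0.31 without control 1, where it was called (limma, adjusted p = 0.0208), and 0.13 without control 2 (limma, adjusted p = 0.215). With columns scaled by median ratios or to the same sum it was also called, at 0.20 in both (limma, adjusted p = 0.0475 and 0.0223). The replicate block called SLC25A39 as well (limma, adjusted p = 0.00612). The relatives of these genes were scarcer. SLC25A28 (mitoferrin 2), which serves iron uptake in other tissues, was at 5.59 and 7.24 FPKM against 7.82 and 8.46 FPKM (0.31, limma, adjusted p = 0.098). Its log2 fold change was 0.15 without control 1 (limma, adjusted p = 0.315) and 0.47 without control 2, where it was called (limma, adjusted p = 0.0259). SLC25A40, the other glutathione carrier, was at 6.94 and 7.78 FPKM against 6.10 and 6.23 FPKM (-0.22, limma, adjusted p = 0.0945).

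Erythroid markers changed in both directions beside these carriers. Of 14 that were tested, 3 were called higher (HBG1, HBG2 and TAL1) and 3 lower, HBZ and ALAS2 among them, where the shares over all tested genes were 10.9% and 9.99%. ALAS2, the erythroid enzyme that uses glycine in the mitochondrion, was at 23.0 and 19.3 FPKM in NC and 13.1 and 11.6 FPKM in CEBPG3. The part of these markers in the values of SLC25A38 was not tested.

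Of 9 nucleotide and cofactor carriers tested 1 was called, beside 20.9% of all tested genes. SLC25A32 (chromosome 8, 103398635 to 103415189, minus strand), which carries folate and FAD into the matrix, was at 13.8 and 13.05 FPKM in NC and 16.2 and 16.9 FPKM in CEBPG3. The groups did not overlap, and the log2 fold change was 0.28 (SE 0.066, limma, adjusted p = 0.0266) and 0.25 without control 2 (limma, adjusted p = 0.0795). Its exons overlap a second protein-coding gene on the same strand and DCAF13 on the other strand. DCAF13 was at 41.7 and 43.1 FPKM against 39.0 and 40.3 FPKM, which is lower in both knockdown libraries (log2 fold change -0.09, limma, adjusted p = 0.28). SLC25A42, a carrier of coenzyme A, was at 10.6 and 10.1 FPKM against 8.39 and 8.94 FPKM (-0.23, limma, adjusted p = 0.0572), and SLC25A36, a pyrimidine nucleotide carrier, was at 12.8 and 13.96 FPKM against 14.4 and 16.4 FPKM (0.19, limma, adjusted p = 0.149). SLC25A42 was called with a filter of 5 FPKM or median-ratio scaling (limma, adjusted p = 0.0426 and 0.0366). The log2 fold change of SLC25A36 was 0.10 without knockdown 2.

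The other cofactor carriers were not called. SLC25A17, a peroxisomal carrier of coenzyme A and related cofactors, was at 20.03 to 20.8 FPKM, and SLC25A33, a pyrimidine nucleotide carrier, was at 22.3 to 26.2 FPKM. SLC25A51, the importer of NAD, was at 7.88 to 8.67 FPKM. Its close relative SLC25A52 was at 0.0336 FPKM at most, but the 2 transcripts share 94.3% of aligned bases and an exact run of 169 bases, so that reads could be assigned to either. SLC25A26, the carrier of S-adenosylmethionine, was at 3.58 to 3.93 FPKM and SLC25A16 at 3.27 to 3.95 FPKM.

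SLC25A46 (chromosome 5, 110738136 to 110765161, plus strand) sits in the outer membrane, where it acts in mitochondrial fission and contacts rather than in transport across the inner membrane. It was at 8.23 and 8.02 FPKM in NC and 5.17 and 5.83 FPKM in CEBPG3. Both knockdown values were well below both controls. Group means were 8.13 ± 0.147 FPKM (SD, n = 2) for NC and 5.50 ± 0.467 FPKM (SD, n = 2) for CEBPG3. Its log2 fold change was -0.49 (SE 0.080, limma, adjusted p = 0.00904). The adjusted p was 0.0495 at most when 1 library was left out and 0.0526 when no filter on low values was applied (limma).

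Among the remaining tested carriers none was called. SLC25A14, a relative of the uncoupling proteins, was at 4.04 and 4.94 FPKM against 5.40 and 6.24 FPKM (log2 fold change 0.32, limma, adjusted p = 0.0831). Without control 1 that fold change was 0.20. SLC25A20, which brings acylcarnitines in for fatty acid oxidation, was at 9.29 and 9.29 FPKM against 8.38 and 8.58 FPKM (-0.12, limma, adjusted p = 0.239). SLC25A43 and SLC25A35, whose substrates are less settled, had groups that overlapped. In all, 10 tested members had an adjusted p between 0.05 and 0.1 (limma), 5 lower and 5 higher. The share of all tested genes in that range was not counted. An unadjusted p under 0.05 was found in 19 of 38 members, beside 37.0% of all tested genes.

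Members below the filter were SLC25A18, SLC25A30, SLC25A34, SLC25A41, SLC25A45, SLC25A52, SLC25A53 and SLC25A5-AS1, with means of 0.0116 to 0.841 FPKM. SLC25A30, a kidney carrier related to the uncoupling proteins, was at 1.15 and 0.985 FPKM in NC, at 0.533 FPKM in knockdown 1 and listed at 0 in knockdown 2. No difference was tested at these levels. The other antisense RNAs, SLC25A21-AS1 and SLC25A25-AS1, were at 1.24 to 1.74 FPKM and were not called. Each of the 3 antisense genes overlaps exons of its carrier, and without strand, reads from the shared bases cannot be told apart.

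Transcripts of 23 members were summed from more than 1 row. With transcripts tested in place of genes, 0 of 58 member transcripts were called (13 at an unadjusted p under 0.05, limma), where 25 of 15795 transcripts were called in all. The share of all transcripts at that unadjusted p was not counted. NM_002635, the leading transcript of SLC25A3, had separate groups, at 199 and 188 FPKM in NC and 151 and 156 FPKM in CEBPG3. NM_213611, the second transcript of SLC25A3, was at 91.7 and 81.2 FPKM against 89.7 and 76.4 FPKM, and its groups overlapped. For SLC25A10, NM_012140 held 86.3% of the signal and was at 18.9 and 19.8 FPKM against 28.4 and 34.8 FPKM. NM_001270888 was uneven between libraries of 1 group, at 4.40 and 1.38 FPKM against 8.39 and 2.05 FPKM.

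SLC25A1 was led by NM_005984 with 90.4% of its signal, at 137 and 124 FPKM in NC and 157 and 147 FPKM in CEBPG3. Its minor transcript NM_001287387 was at 3.94 and 4.98 FPKM against 10.4 and 9.43 FPKM, or 222% of control, and had the lowest adjusted p of any member transcript (limma, 0.0884). NR_046298 of the same gene was lower in both knockdown libraries, at 1.19 and 1.49 FPKM against 0.976 and 0.913 FPKM. In SLC25A37 the transcripts went opposite ways: NM_001317812 was at 13.9 and 16.4 FPKM against 17.96 and 16.8 FPKM, and NM_016612 was at 7.87 and 5.78 FPKM against 3.60 and 5.69 FPKM. The groups of both transcripts were separate, but knockdown 2 lay next to a control value in each. Both SLC25A22 transcripts were higher in both knockdown libraries, and none of the 3 SLC25A32 transcripts with at least 1 FPKM had separate groups.

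**Figure D4:**
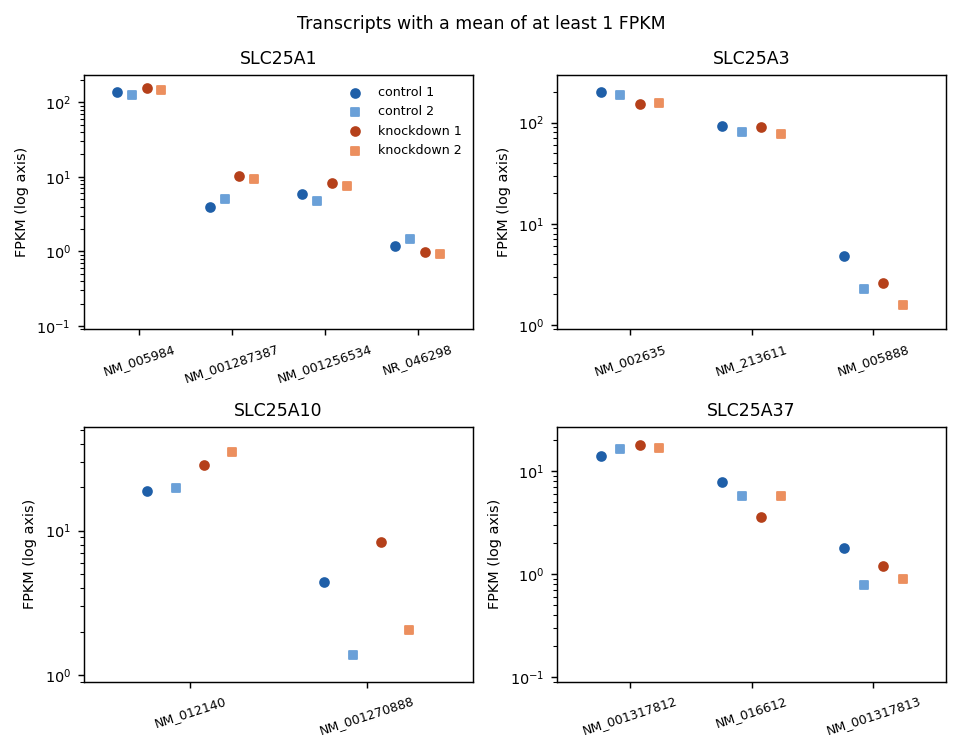
FPKM (log axes) in each library for transcripts of SLC25A1, SLC25A3, SLC25A10 and SLC25A37 with a mean of at least 1 FPKM, named by RefSeq accession on the horizontal axis. In SLC25A37 the first transcript is higher and the second lower in the knockdown libraries, while in SLC25A10 the second transcript differs most between libraries of the same group.

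To place the carriers, 6 lists of genes from the same pathways were read from the same fit. Of 60 tested genes on them 16 were called (7 higher and 9 lower), beside 20.9% of all tested genes (10.9% higher and 9.99% lower), with a median log2 fold change of 0.0015. Leaving out libraries moved this count to 13 without control 1, 15 without control 2, 2 without knockdown 1 (ALAS2 and ME1) and 5 without knockdown 2 (AGK, ALAS2, ME1, MPC1 and TSPO). Shuttle and citrate enzymes, which act on the substrates of SLC25A1, SLC25A10 and SLC25A11, had 3 of 14 called higher and 1 lower, beside 10.9% and 9.99% of all tested genes. ME1, the cytosolic malic enzyme, was at 10.8 and 10.2 FPKM in NC and 18.2 and 19.2 FPKM in CEBPG3 (log2 fold change 0.78, limma, adjusted p = 0.00135). ME2, its mitochondrial counterpart, changed by 0.35 and IDH1, the cytosolic isocitrate dehydrogenase, by 0.29 (limma, adjusted p = 0.016 and 0.0155). PC, which makes oxaloacetate from pyruvate, was at 8.96 and 8.01 FPKM against 6.23 and 5.94 FPKM (-0.42, limma, adjusted p = 0.0148). ME1 was called without any one library, ME2 and IDH1 were lost without knockdown 1 or knockdown 2, and PC was kept without control 2 alone.

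Carriers reach the inner membrane through the small TIM chaperones and the TIM22 complex. Of 11 import genes 3 were called, beside 20.9% of all tested genes: TIMM9 and TIMM10, the subunits of 1 chaperone, were called lower (-0.22 and -0.36, limma, adjusted p = 0.039 and 0.0423), and AGK, a subunit of the TIM22 complex, was called higher (0.42, limma, adjusted p = 0.0121) and was lost without knockdown 1. TIMM22, the channel itself, was at 5.58 and 5.08 FPKM against 4.55 and 4.36 FPKM (-0.21, limma, adjusted p = 0.109). TIMM9 was lost whichever of the 4 libraries was left out, and TIMM10 was kept without control 2 alone. Other mitochondrial transporters gave 2 higher and 3 lower of 16, beside 10.9% and 9.99% of all tested genes. MPC1, a subunit of the pyruvate carrier, was at 37.8 and 30.5 FPKM in NC and 22.3 and 23.5 FPKM in CEBPG3 (-0.55, limma, adjusted p = 0.0132). TSPO, an outer membrane protein, rose by 0.61 and SFXN1, the serine importer, by 0.23 (limma, adjusted p = 0.015 and 0.0289), whereas the transporters ABCB10 and ABCB8 changed by -0.37 and -0.25 (limma, adjusted p = 0.01255 and 0.0489). ABCB8 was lost without any one library, SFXN1 was kept without control 1 alone, and ABCB10 was lost without knockdown 1 or knockdown 2. MPC1 and TSPO were lost without knockdown 1.

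UCP2, a carrier of the same family that bears another symbol, was at 50.02 and 43.97 FPKM in NC and 61.3 and 59.2 FPKM in CEBPG3 (log2 fold change 0.35, limma, adjusted p = 0.0198), and was lost without knockdown 1 or knockdown 2. MTCH1 and MTCH2, outer membrane relatives, were not called, and UCP1 and UCP3 were below the filter. Heme synthesis had 3 of 9 called lower, beside 9.99% of all tested genes, and 0 higher: ALAS2 (-0.73), ALAD (-0.39) and FECH (-0.26), with limma adjusted p of 0.00485, 0.0141 and 0.0436. With 1 library left out, ALAS2 stayed called in each case, ALAD was lost without knockdown 1 or knockdown 2, and FECH was lost without any one of the 4. Of the 7 folate enzymes tested, 0 were called (2 at an unadjusted p under 0.05, limma), beside 20.9% of all tested genes called and 37.0% at an unadjusted p under 0.05. MTHFD1L was called without control 1, with a filter of 5 FPKM and under both other scalings, and SHMT2 was called without control 1. The replicate block called MTHFD1L and SHMT1. SHMT2, which makes glycine in the mitochondrion, was at 129 and 111 FPKM against 134 and 131 FPKM.

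**Figure D5:**
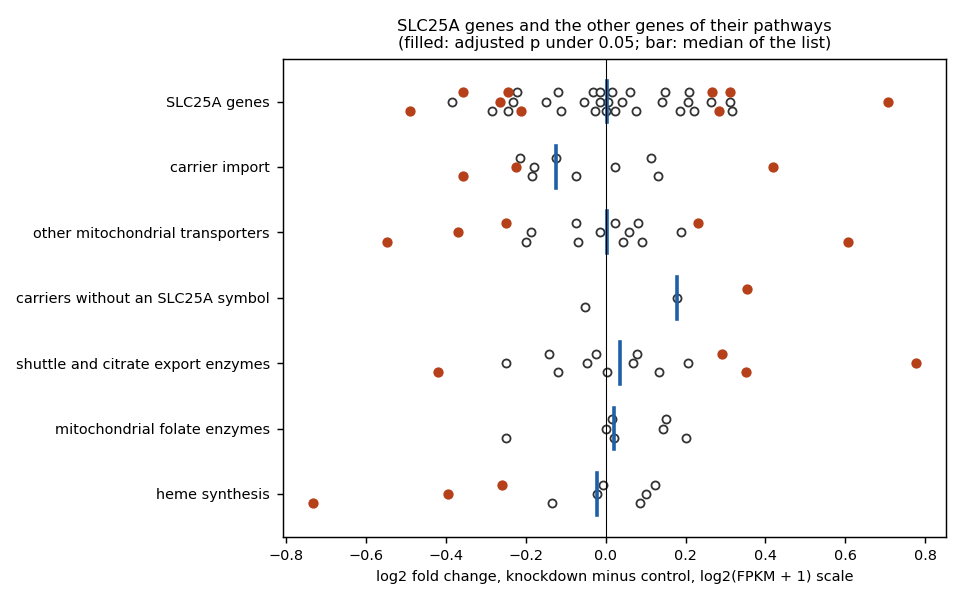
Log2 fold change (knockdown minus control, log2(FPKM + 1) scale) of the tested SLC25A genes and of the genes on 6 lists of related pathways; each point is a gene, filled where the adjusted p was under 0.05, and the blue bar is the median of its list. Filled points lie on both sides of 0 in the SLC25A row, and the 3 filled heme synthesis genes lie below 0, where 9.99% of all tested genes were called lower.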

How the data were processed

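Total RNA of 2 control and 2 knockdown libraries was sequenced, with libraries made by an Illumina TruSeq kit per the labels. Per the study and the submitters' processing notes, reads were mapped with HISAT2 2.0.5 to hg38, and the authors deposited 1 table of FPKM values for 29265 RefSeq transcripts. The quantifier, the annotation release and the use of strand were not given in the sources used here. Of these rows, 183 held no value and 164 had no symbol (0.25% of FPKM); both were left out, and 28918 transcripts were summed to 16504 symbols. Whole reads could not be recovered from low values: of 2798 low single-transcript genes, the most common ratio of the control libraries made up 0.715%.

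Genes that averaged 1 FPKM or more were compared on log2(FPKM + 1) in limma 3.58.1 (R 4.3.3) (mean trend in the moderation, 2-sided, p-values adjusted by Benjamini-Hochberg), which was tested on simulated data. Such fold changes understate those of low genes. All 46 members were found in GENCODE 44 for positions. Promoters came from RefSeq (GRCh38.p14), and transcripts were aligned with Biopython 1.88. Alternatives were other filters, pseudocount, scalings, moderation, a replicate block, transcripts and each library left out.

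The members and lists were chosen with earlier results of these data known. Every member could be named; called members, the 3 noted erythroid carriers and the 3 most abundant members were given in full, as were opposed transcripts and called genes of the pathway lists. Overlapping and neighbouring genes, transcripts and genes near the threshold were added after their values were seen, and so were the promoter motifs. A tested member, a marker and a promoter sequence are counted where they apply but not reported here.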

Additional observations from a re-analysis of the deposited data

How the results depend on the processing

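With 2 libraries a group and FPKM without read depth, counts of calls moved between settings, and so did the values of several uncalled members. The causes were not tested except where a setting tests other features or fewer libraries. Of all genes, 2288 were called; the count was 882 with no filter on low values, 3440 with the replicate block, and 825 to 1925 when 1 library was left out. Of the SLC25A members, 9 were called; the count was 1 with no filter (SLC25A10), 3 with moderation without a mean trend, 16 with the replicate block and 0 with transcripts in place of genes, and 2 to 7 with 1 library left out. Of the pathway genes, 16 were called, 5 with no filter and 2 to 15 with 1 library left out. With the replicate block SLC25A14, SLC25A24, SLC25A28, SLC25A29, SLC25A39, SLC25A42 and SLC25A44 were called beside the 9. The labels give no more than a number to pair libraries. Deviations of same-numbered libraries correlated at 0.10, a single value with 2 libraries a group, which does not settle whether the numbers mark a shared culture or day.

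Uncalled members changed sign. With 1 library left out, log2 fold changes ran from -0.072 to 0.0083 for SLC25A12, -0.012 to 0.043 for SLC25A17, -0.052 to 0.17 for SLC25A33, -0.10 to 0.15 for SLC25A35, -0.034 to 0.0045 for SLC25A37, -0.17 to 0.12 for SLC25A43, -0.055 to 0.067 for SLC25A51 and -0.080 to 0.049 for SLC25A6. With median-ratio scaling SLC25A17 was at -0.0023 and SLC25A51 at -0.010, and with columns scaled to the same sum at -0.0056 and -0.014. With the leading transcript in place of the gene, SLC25A12 was at 0.013, SLC25A25 at -0.040, SLC25A26 at 0.12, SLC25A37 at 0.19 and SLC25A51 at -0.011.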
